A study of Mus musculus with 15 samples.

Results

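Genes whose human counterparts carry inherited variants in Parkinson disease or related parkinsonism were followed in mouse substantia nigra, where the dopamine-producing neurons that die in the disease have their cell bodies. The 8 are Lrrk2, Pink1, Park7, Vps35, Atp13a2, Fbxo7, Dnajc6 and Synj1. The 8 genes were chosen by symbol, with earlier results of these data known. All 8 were found among the 36265 genes with values and passed the filter on low levels. RNA was sequenced in 15 libraries from 8 C57Bl/6J mice, 3 weeks after an adeno-associated virus (AAV) had been injected into the nigra on 1 side. The groups were 3 sides injected with AAV-hSYN1-miR-181 (1.65e10 vector genomes), the 3 uninjected sides of the same mice, 4 sides injected with AAV-hSYN1-GFP (1e10 vector genomes), and 5 uninjected sides of GFP mice, of which 1, from mouse 5, had no injected partner here. GFP is green fluorescent protein, carried by the comparison virus, and hSYN1 is the human synapsin 1 promoter, which drives expression in neurons. An injected side differed from its partner in surgery, virus and transgene together, and the miR-181 and GFP mice also differed in dose, library set, read length and sequencer, so none of these can be told apart from miR-181 itself. Each library came from dissected bulk tissue, in which fewer cells of a type and less RNA per cell cannot be told apart.

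The 8 gene products act in a small number of linked processes. PINK1 is a kinase that marks damaged mitochondria for removal, DJ-1 (from Park7) guards against oxidative damage, and FBXO7 is an F-box protein that binds the proteasome and takes part in mitochondrial turnover. LRRK2 is a kinase that phosphorylates Rab GTPases on endosomal and lysosomal membranes, VPS35 is the core of the retromer that recycles cargo out of endosomes, and ATP13A2 is a lysosomal polyamine transporter. Auxilin (from Dnajc6) strips clathrin from endocytosed vesicles and synaptojanin 1 (from Synj1) is a lipid phosphatase needed for the same uncoating, so both are prominent at synapses.

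MicroRNAs lower the level or translation of messenger RNAs that pair with their seed, the stretch from base 2 to base 8, most often in the 3′ UTR. The labels do not say which miR-181 the virus carried, so the mature forms of the family (RefSeq, GRCm38.p6) are shown with the seed in capitals, which is the same in all of them.
mmu-miR-181a-5p: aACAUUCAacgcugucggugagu
mmu-miR-181b-5p: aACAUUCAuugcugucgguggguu
mmu-miR-181c-5p: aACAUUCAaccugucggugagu
mmu-miR-181d-5p: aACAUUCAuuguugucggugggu
Matches were searched on the sense strand of each gene's longest 3′ UTR (GENCODE M21, GRCm38), either as TGAATGT, which pairs with bases 2 to 8, or as GAATGTA, which pairs with bases 2 to 7 and ends in A; where the 2 overlap as 1 run of 8 bases, they were counted once. Of the 8 genes, 1 had a match, Fbxo7, against 24.84% of the 14335 tested genes with an annotated 3′ UTR. Its 2 matches are shown in capitals within the surrounding bases of the plus strand.
Fbxo7 match 1, chr10:86049205-86049234: acatgcttttgtggaTGAATGTtaggttgc
Fbxo7 match 2, chr10:86049275-86049304: gtgtgtgtgtgtggcTGAATGTtagcatgg
They lie at bases 1112 and 1182 of a 3765-base 3′ UTR that belongs to 1 of the 5 Fbxo7 transcripts with an annotated 3′ UTR. The 3′ UTRs of the other 4, of 215 to 1291 bases, held neither sequence, and the deposited values are per gene, so they do not say which transcript was present. The longest 3′ UTRs of the others ran to 178 bases in Park7, 340 in Atp13a2, 547 in Pink1, 585 in Lrrk2, 738 in Vps35, 2226 in Dnajc6 and 2937 in Synj1, against a median of 1364 bases over the tested genes. No match says only that these letters are not in those windows.

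In both sets of mice the 8 genes kept a wide spread of levels, given here as the authors' normalized abundance, which is scaled for transcript length and can be set beside one another within a library. Pink1 was the highest and Lrrk2 the lowest in all 4 groups. Pink1 averaged 397 ± 8.60 in miR-181 injected sides (SD, n = 3) and 404 ± 7.42 in their uninjected sides (SD, n = 3), a level that only 2.01% of 15453 genes exceeded in these mice. Lrrk2 averaged 6.98 ± 1.04 in miR-181 injected sides and 9.51 ± 2.26 in uninjected sides (SD, n = 3 each), and 70.9% of genes stood above it. Below Pink1 came Synj1, Park7, Dnajc6, Atp13a2, Vps35 and Fbxo7 in miR-181 mice, and the same order in GFP mice except that Park7 stood above Synj1. The ranges of neighbours in that order overlapped only for Atp13a2 (102 to 104) and Vps35 (94.7 to 103) in miR-181 injected sides. The tables of the 2 sets of mice were normalized separately, so the change of order between them was not tested.

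**Figure D1:**
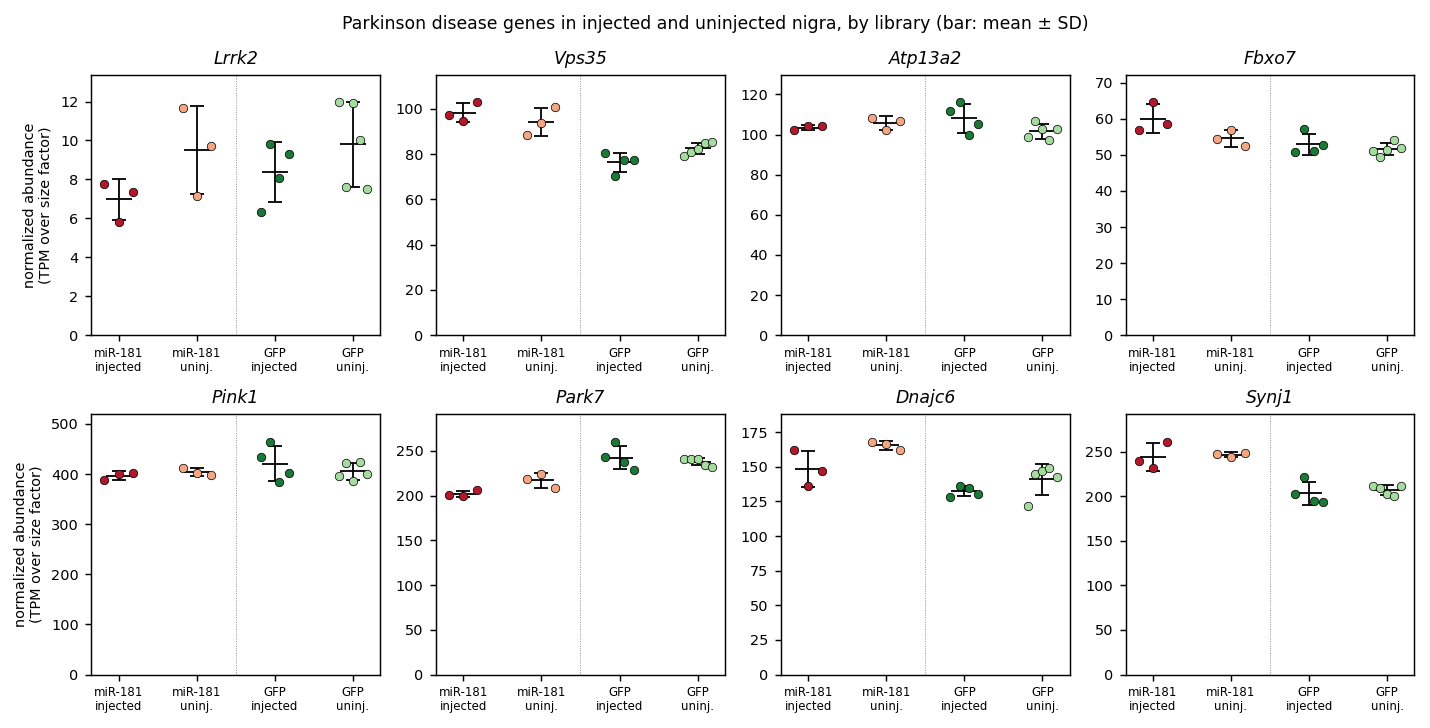
Level of each of the 8 genes (vertical axes, normalized abundance, read as TPM over a size factor) in every library, with the mean and SD of each group. Lrrk2 is the lowest and most variable, and the 2 sides overlap in every panel except Park7 in miR-181 mice, where all 3 injected sides lie below all 3 uninjected sides.

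None of the 8 genes passed the test between the sides of the miR-181 mice, between the sides of the GFP mice, or between the changes of the 2 sets of mice. The test was limma on log2(value + 0.5) over all genes with a mean of at least 1, with Benjamini-Hochberg adjustment and a threshold of 0.05. Over all genes it called 5.88% of 15453 in miR-181 mice, 1.35% of 15274 in GFP mice and 0.0337% of 14824 for the difference in change, so 0 of 8 is near the background share in each. Those shares stand for 908 genes in miR-181 mice (678 higher and 230 lower, or 634 and 468 with each library centred on its median gene), 206 genes in GFP mice (124 with the mouse as a block) and 5 genes for the difference. They rested on single libraries: in miR-181 mice 1924, 511 and 198 genes were called without injected mouse 1, 2 or 3 and 139, 117 and 180 without uninjected mouse 1, 2 or 3. In GFP mice 126, 130, 211 and 115 were called without injected mouse 1, 2, 3 or 4. Without uninjected mouse 1, 2, 3, 4 or 5 the calls were 255, 133, 114, 150 and 108. The difference had 323 without miR-181 mouse 1 and 1 or 2 without any other mouse. At an unadjusted p under 0.05 there was 1 of the 8 in each comparison, Dnajc6 in miR-181 mice, Vps35 in GFP mice and Vps35 for the difference, where 23.5%, 9.52% and 15.3% of all genes had such a p in that order. The median size of the log2 change, in either direction, was 0.0807 for the 8 genes and 0.123 for all genes in miR-181 mice, and 0.0693 for the 8 genes and 0.0787 for all genes in GFP mice. In the main fit, leaving Lrrk2 aside, the 95% intervals of the other 7 lay between 0.801-fold and 1.22-fold in miR-181 mice. They lay between 0.859-fold and 1.15-fold in GFP mice, and between 0.825-fold and 1.25-fold for the difference. These bounds hold for the scaling of the main fit only. Over the settings that kept every library, the log2 change in miR-181 mice ran from -0.23 to -0.16 for Dnajc6 and -0.17 to -0.1 for Park7. It ran from -0.096 to -0.031 for Atp13a2, -0.092 to -0.027 for Pink1 and -0.082 to -0.014 for Synj1. For Vps35 it ran from -0.0044 to 0.061 and for Fbxo7 from 0.068 to 0.13. A p that misses the threshold does not show that a gene was alike on both sides.

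Lrrk2 (chr15:91673175-91816120 in GRCm38, plus strand) had the largest fitted change of the 8 and the widest interval in each set of mice. Its level was 7.78, 5.80 and 7.35 in the injected sides of miR-181 mice 1 to 3, against 11.7, 7.15 and 9.71 in the uninjected sides of the same mice. Every injected side was lower than its own partner, but the groups overlapped, since injected mouse 1 stood above uninjected mouse 2. The fitted level was 0.756-fold (log2 change -0.40 ± 0.19 SE, 95% interval 0.553 to 1.03-fold, adjusted p = 0.256, limma). In GFP mice it was 6.35, 9.81, 8.06 and 9.32 in the injected sides of mice 1 to 4, against 11.95, 7.63, 11.9 and 10.02 in their uninjected sides and 7.52 in that of mouse 5. Injected sides were lower in 3 of the 4 pairs and higher in mouse 2, with a fitted log2 change of -0.20 ± 0.17 SE (adjusted p = 0.765, limma). The largest fall was in GFP mouse 1, whose libraries also carried pituitary hormone transcripts (values given under Dnajc6). These libraries enter every GFP comparison here, and the part of the pituitary RNA was not tested. The difference between the 2 sets of mice was -0.12 ± 0.27 SE on the log2 scale (0.605 to 1.41-fold, adjusted p = 0.876, limma), and without GFP mouse 2 it was 0.094, so its sign rested on that mouse.

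Vps35 (chr8:85260392-85299802, minus strand), the retromer core, had a positive fitted change in miR-181 mice and a negative one in GFP mice, and neither passed. In miR-181 mice it stood at 97.1, 94.7 and 103 in the injected sides, against 88.2, 93.6 and 101 in the uninjected sides, higher on the injected side in 3 of 3 mice with overlapping groups. The log2 change was 0.06 ± 0.06 SE (adjusted p = 0.606, limma), and it was -0.0044 when each library was centred on its median gene. In GFP mice it stood at 80.4, 70.4, 77.3 and 77.4 in the injected sides, against 79.1, 81.0, 82.3 and 84.7 in the uninjected sides of the same mice and 85.2 in that of mouse 5. It was lower on the injected side in 3 of 4 mice, and mouse 1 alone went the other way and made the groups overlap. The libraries of GFP mouse 1 carried pituitary hormone transcripts, and their part in this was not tested. The log2 change in GFP mice was -0.11 ± 0.05 SE (0.863 to 0.994-fold, unadjusted p = 0.0356, adjusted p = 0.466, limma), and the difference between the sets was 0.16 ± 0.07 SE (unadjusted p = 0.0458, adjusted p = 0.318, limma). Exons of Vps35 overlap those of Orc6 on the opposite strand; the library kit kept the strand, but the sources used here do not say whether strand was used in counting.

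Atp13a2 (chr4:140986873-141007330, plus strand), the lysosomal transporter, did not pass in either set. Levels ran from 102 to 104 in the 3 miR-181 injected sides and from 102 to 108 in the uninjected sides, with a log2 change of -0.03 ± 0.04 SE (0.913 to 1.05-fold, adjusted p = 0.719, limma). They ran from 99.6 to 116 in the 4 GFP injected sides and from 97.1 to 107 in the 5 uninjected sides, higher on the injected side in 3 of 4 mice, with a log2 change of 0.09 ± 0.05 SE (adjusted p = 0.641, limma). The sides overlapped in both sets.

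Among the mitochondrial genes, Pink1 (chr4:138313409-138326307, minus strand) did not pass in either set. Its levels were 387, 401 and 403 in miR-181 injected sides, against 413, 402 and 398 in uninjected sides, and the log2 change was -0.03 ± 0.04 SE (0.92 to 1.05-fold, adjusted p = 0.739, limma). In GFP mice they ran from 384 to 464 in the injected sides and from 386 to 424 in the uninjected sides, higher in 2 mice and lower in 2, with a log2 change of 0.05 ± 0.06 SE (adjusted p = 0.824, limma). The sides overlapped in both sets. Exons of Pink1 overlap 2 annotated microRNA genes on the same strand, Mir7019 and Gm27646.

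Park7 (chr4:150897133-150914437, minus strand) was the only one of the 8 whose sides did not overlap. In miR-181 mice its level was 201, 199.8 and 206 in the injected sides, against 218, 224 and 208 in the uninjected sides of the same mice. All injected sides were thus below all uninjected sides, as they were for 14.5% of the genes tested, although mouse 3 was at 99.0% of its uninjected side. The log2 change was -0.10 ± 0.04 SE (adjusted p = 0.225, limma). In GFP mice the level was 243, 260.2, 238 and 229 in the injected sides, against 240.5, 241, 240.7 and 234 in the uninjected sides of the same mice and 232 in that of mouse 5. There the injected sides lay on both sides of the uninjected ones, and none of the 8 genes had sides apart in GFP mice, against 4.29% of the genes tested. The GFP change was 0.03 ± 0.04 SE on the log2 scale, or -0.021 with quantile normalization, and the difference between the sets was -0.12 ± 0.06 SE (0.839 to 1.01-fold, adjusted p = 0.39, limma).

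Fbxo7 (chr10:86021972-86051873, plus strand), the 1 gene with seed matches, did not pass in either set, and its fitted level was above that of the uninjected side in both. Its level was 56.8, 64.5 and 58.6 in miR-181 injected sides, against 54.5, 57.0 and 52.4 in the uninjected sides, higher in 3 of 3 mice, with groups that overlapped narrowly at injected mouse 1 and uninjected mouse 2. The log2 change was 0.13 ± 0.06 SE (0.988 to 1.22-fold, adjusted p = 0.263, limma). In GFP mice it was 50.8, 57.1, 51.2 and 52.7 in the injected sides, against 51.1, 49.4, 51.2 and 54.1 in the uninjected sides of the same mice and 51.9 in that of mouse 5. Mouse 2 alone was higher on the injected side, the others were level or lower, and the log2 change was 0.04 ± 0.05 SE (adjusted p = 0.843, limma), or -0.013 without mouse 2. Exons of Fbxo7 overlap the antisense gene A230060F14Rik.

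Dnajc6 (chr4:101496648-101642799, plus strand), which encodes the neuronal clathrin-uncoating factor auxilin, had the smallest unadjusted p of the 8 in miR-181 mice. Its level was 162, 136 and 147 in the injected sides, against 168, 166 and 162 in the uninjected sides. It was lower in 3 of 3 mice, and the groups met only at injected mouse 1 and uninjected mouse 3, whose values were 162.1 and 161.8. The log2 change was -0.16 ± 0.07 SE (0.801 to 0.999-fold, unadjusted p = 0.0489, adjusted p = 0.211, limma). It passed in 1 of the fits that left out a library, without injected mouse 1, where the log2 change was -0.23 (adjusted p = 0.0408, limma). That fit called 1924 of 15436 genes, so 1 of 8 is near the background share. The gap was widest in mouse 2, at 81.6% of the uninjected side, and mouse 2 was also where the summed level of 15 neuronal markers was lowest, at 5684 on the injected side and 6865 on the uninjected side, and where 18 dopamine neuron markers summed to 1331 on the injected side and 2324 on the uninjected side. The part of these markers in the result was not tested.

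In GFP mice Dnajc6 was 128, 136, 135 and 131 in the injected sides, against 122, 145, 147 and 149 in the uninjected sides of the same mice and 143 in that of mouse 5. It was lower on the injected side in mice 2 to 4 and higher in mouse 1, with a log2 change of -0.09 ± 0.06 SE (adjusted p = 0.698, limma). The low uninjected value came from mouse 1, whose libraries also carried pituitary hormone transcripts. Their summed level over 6 genes was 2451 in the injected and 5.009e+04 in the uninjected side of mouse 1, against 4.934 to 8.996 in the other injected and 2.998 to 18.69 in the other uninjected sides of GFP mice. Without the uninjected library of mouse 1 the log2 change was -0.14 (adjusted p = 0.116, limma), and the part of the pituitary RNA in the value was not tested. The difference between the sets was -0.08 ± 0.08 SE (0.833 to 1.08-fold, adjusted p = 0.704, limma).

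Synj1 (chr16:90936092-91011308, minus strand), the phosphatase that acts beside auxilin, did not pass in either set. It ran from 232 to 261 in miR-181 injected sides and from 244 to 249 in uninjected sides, with a log2 change of -0.02 ± 0.05 SE (0.906 to 1.08-fold, adjusted p = 0.881, limma). It ran from 194 to 222 in GFP injected sides and from 200.3 to 212 in uninjected sides, lower in 3 of 4 mice, with a log2 change of -0.03 ± 0.04 SE (adjusted p = 0.877, limma). The difference between the sets was 0.00 ± 0.06 SE, an interval of 0.912 to 1.1-fold. Exons of Synj1 overlap the transcript 4930404I05Rik on the opposite strand.

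**Figure D2:**
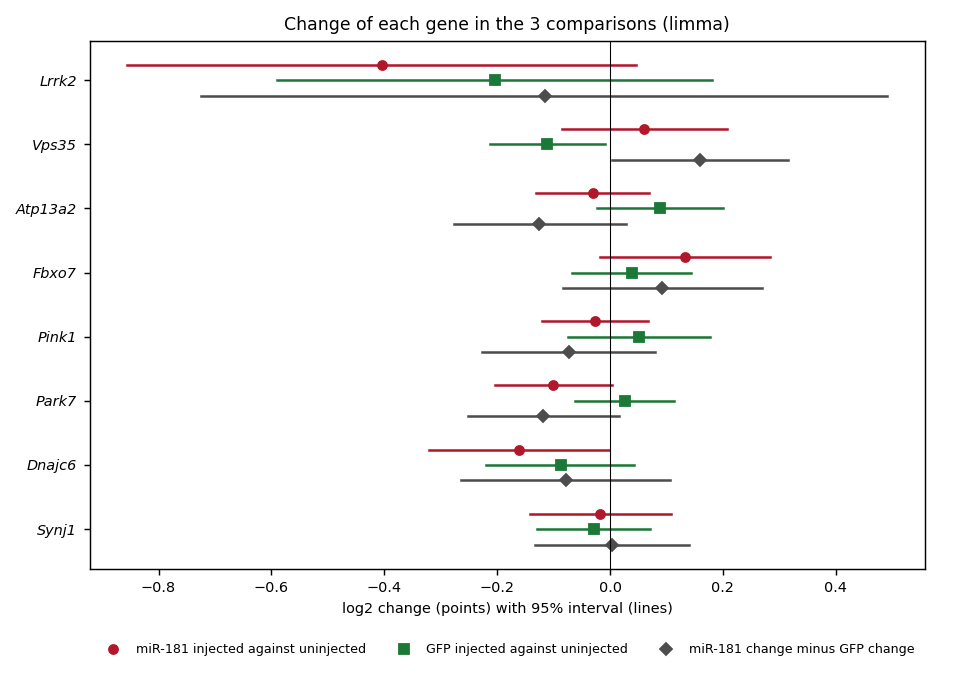
Fitted log2 change of each gene (points) with its 95% interval (lines) in miR-181 mice, in GFP mice and for the difference between them. Most intervals hold 0; the exceptions are Dnajc6 in miR-181 mice and Vps35 in GFP mice and for the difference, none of which passed after adjustment.

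**Figure D3:**
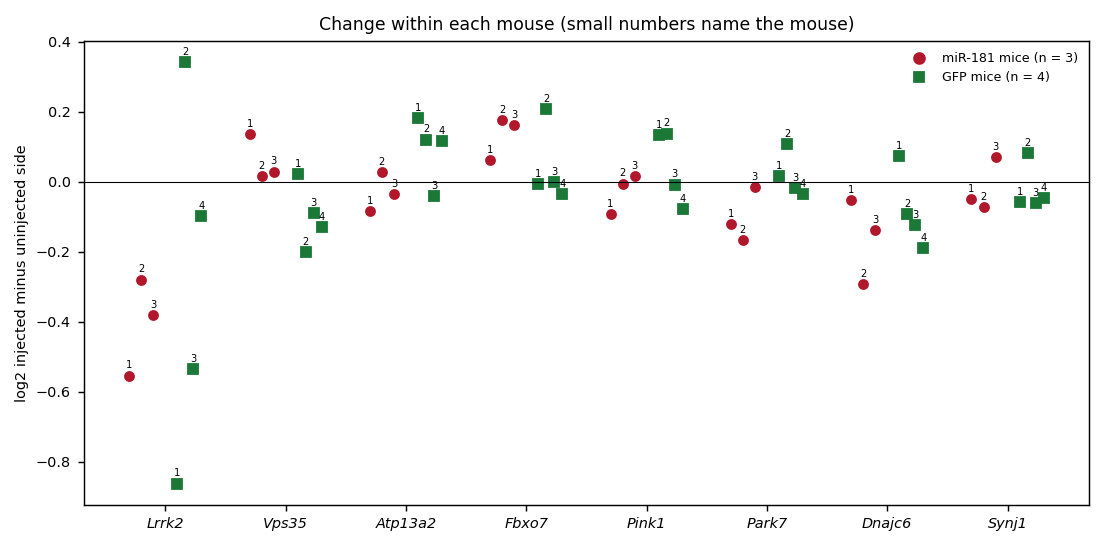
Log2 difference between the injected and uninjected side within each mouse (vertical axis), by gene, with the mouse numbers beside the points. Lrrk2, Park7 and Dnajc6 lie below 0 in all 3 miR-181 mice, Vps35 and Fbxo7 lie above 0 in all 3, and GFP mouse 2 is the highest GFP mouse for Lrrk2, Fbxo7, Pink1, Park7 and Synj1.

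The surrounding pathways were read on 8 lists assembled by function. They held 215 distinct tested genes, of which 13 (6.05%) were called in miR-181 mice, near the 5.88% of all genes, and 2 (0.93%) in GFP mice, where 1.35% of all genes were called. The genes named here are therefore described one by one, and nothing is read from the number called. In miR-181 mice, 4 of the 23 lysosomal genes rose and 0 fell, at a median log2 change of 0.0743 over the list and 0.00353 over all genes, where 4.39% of all genes rose and 1.49% fell. Ctsd, which encodes the protease cathepsin D, averaged 906 ± 173 in injected and 455 ± 7.35 in uninjected sides (SD, n = 3 each), a 1.97-fold rise (adjusted p = 0.0115, limma). Grn, which encodes progranulin, a lysosomal and secreted protein abundant in microglia, averaged 163 ± 48.6 in injected and 63.4 ± 1.06 in uninjected sides (SD, n = 3 each), a 2.48-fold rise (adjusted p = 0.0149, limma). The membrane protein gene Lamp2 rose 1.29-fold and the protease gene Ctsb 1.33-fold. In GFP mice, where 1.34% of all genes rose and 0.0131% fell, 2 of the 23 rose and 0 fell, Ctsd at 649 ± 44.7 in injected (SD, n = 4) and 477 ± 35.9 in uninjected sides (SD, n = 5), and Grn at 88.6 ± 6.41 in injected and 62.1 ± 8.81 in uninjected sides. These 2 changes were 1.36-fold and 1.43-fold, and the difference between the sets was not called for either gene (adjusted p = 0.12 and 0.121, limma).

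Beside the lysosomal genes moved the markers of microglia, which express many of them. Of 14 microglial markers, 12 rose in miR-181 mice, where 4.39% of all genes rose. In these mice they summed to 1537 to 2679 in injected sides and 678 to 710.4 in uninjected sides. In GFP mice 11 of the 14 rose, where 1.34% of all genes rose. Their sums there were 1017 to 1323 in injected sides and 532.5 to 707.5 in uninjected sides. Aif1, a microglial and macrophage gene, rose 3.99-fold in miR-181 mice and 2.18-fold in GFP mice (adjusted p = 0.00748 and 0.000945, limma). The Aif1 call held in 5 of 6 fits without 1 library in miR-181 mice (adjusted p up to 0.0539, limma). It was lost there without uninjected mouse 2, and in GFP mice it held in 9 of 9. Of 18 interferon response genes, 18 rose in miR-181 mice and 14 in GFP mice, beside the same shares of all genes. How the microglial and interferon counts change without single libraries is not given. None of the microglial and interferon genes had a mean under 1 in the uninjected sides, so none passed the filter through the injected sides alone. Reactive astrocyte markers summed to 945.5 to 1438 in injected and 475.3 to 553.1 in uninjected sides of miR-181 mice, and to 478.1 to 801.4 in injected and 273.7 to 432.1 in uninjected sides of GFP mice. Among them Gfap, an astrocyte filament gene, was 1.96-fold in miR-181 mice and 1.77-fold in GFP mice (adjusted p = 0.0206 and 0.0492, limma). Both calls were fragile: the Gfap call held in 2 of 6 fits without 1 library in miR-181 mice (adjusted p up to 0.0938) and in 2 of 9 in GFP mice (up to 0.153). It was also lost with no filter and with no intensity trend in both sets, and in GFP mice with a pseudocount of 1 and with quantile normalization.

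Markers of monocytes and macrophages, of T and NK cells and of B and plasma cells are given by their sums alone. Of the tested markers, 9 of 12 for T and NK cells and 3 of 6 for B and plasma cells had an uninjected mean under 1 in miR-181 mice. These genes could pass the filter through the injected sides alone, so no count of risen markers is given. Monocyte and macrophage markers summed to 135.4 to 195.4 in injected and 31.32 to 42.14 in uninjected sides of miR-181 mice, and to 51.6 to 132.4 in injected and 17.86 to 26.41 in uninjected sides of GFP mice. T and NK cell markers summed to 45.34 to 171 in injected and 16.54 to 19.44 in uninjected sides of miR-181 mice, and to 28.78 to 35.69 in injected and 12.12 to 23.41 in uninjected sides of GFP mice. B and plasma cell markers summed to 941.9 to 4991 in injected and 85.31 to 149.4 in uninjected sides of miR-181 mice, and to 97.49 to 1537 in injected and 23.4 to 51.56 in uninjected sides of GFP mice. For all 3 cell types the sums of injected and uninjected sides did not overlap in either set of mice. Among single genes, the sides lay apart for 4.29% of those tested in GFP mice. The share with injected sides higher in miR-181 mice is not given. No such share was taken for sums of genes, and a sum does not show which genes carried it. The part of these cells in the lysosomal calls was not tested.

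Of 25 oxidative stress genes, 3 rose and 1 fell in miR-181 mice, where 4.39% of all genes rose and 1.49% fell. Hmox1, the heme-degrading enzyme gene induced by stress, averaged 15 ± 2.80 in injected and 7.67 ± 0.13 in uninjected sides (SD, n = 3 each), a 1.87-fold rise (adjusted p = 0.0168, limma). Nfe2l2, which encodes the transcription factor NRF2, rose 1.53-fold, and Prdx6, a peroxidase gene chosen after its values were seen, rose 1.26-fold. Sod2, the mitochondrial superoxide dismutase gene, fell to 100 ± 3.96 in injected sides, against 123 ± 2.91 in uninjected sides (SD, n = 3 each), 0.813-fold (adjusted p = 0.0186, limma). In GFP mice 0 of the 25 passed, with 5 at an unadjusted p under 0.05, as had 9.52% of all genes, and the smallest p belonged to the peroxidase gene Gpx1 (1.14-fold, adjusted p = 0.0801, limma).

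Among proteins that work with LRRK2, 1 of 26 rose and 1 fell in miR-181 mice, where 4.39% of all genes rose and 1.49% fell. Rab32, a small GTPase that binds LRRK2 and whose human gene is itself linked to Parkinson disease, averaged 5.18 ± 1.60 in injected and 2.04 ± 0.184 in uninjected sides (SD, n = 3 each), a 2.18-fold rise (adjusted p = 0.0321, limma). Spag9, which encodes the motor adaptor JIP4, fell to 161 ± 12.3 in injected sides, against 197 ± 3.77 in uninjected sides (SD, n = 3 each), 0.816-fold (adjusted p = 0.0425, limma). Ywhag, for a 14-3-3 protein, was at 507 ± 65.2 in injected and 660 ± 7.32 in uninjected sides and did not pass (adjusted p = 0.0556, limma). In GFP mice 0 of the 26 passed, with 4 at an unadjusted p under 0.05 beside 9.52% of all genes. The smallest were those of Rab29 (1.42-fold, adjusted p = 0.205, limma) and Lrrk1 (1.5-fold, adjusted p = 0.212, limma), which encode a Rab that recruits LRRK2 to membranes and the closest relative of LRRK2. Rab32 was at 2.69 ± 0.418 in injected (SD, n = 4) and 1.64 ± 0.559 in uninjected sides (SD, n = 5), and the difference between the sets was not called (adjusted p = 0.513, limma).

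The remaining lists held 1 call or none in miR-181 mice and 0 in GFP mice. Over all genes, 4.39% rose and 1.49% fell in miR-181 mice, and 1.34% rose and 0.0131% fell in GFP mice. In the retromer and WASH list 1 of 23 rose, the sorting nexin gene Snx5 (1.19-fold), and Vps26a, a subunit that binds VPS35, was at 1.13-fold and did not pass (adjusted p = 0.169, limma). In the clathrin and endocytosis list 1 of 34 fell, Sh3gl2 (0.824-fold), which encodes endophilin A1, the protein that recruits synaptojanin to vesicle necks; Pacsin1 was at 0.881-fold and Gak, the widely expressed relative of auxilin, at 1.11-fold, and neither passed. In the SCF and proteasome list 1 of 35 fell, the proteasome subunit gene Psmb1 (0.846-fold). Psmb1 ran against most of its list, where 28 genes were higher and 7 lower in miR-181 mice (median log2 change 0.0427). In GFP mice the smallest p of that list was that of the subunit gene Psma7 (1.09-fold, adjusted p = 0.149, limma). In the PINK1 and mitophagy list 0 of 39 passed, with 11 at an unadjusted p under 0.05 in miR-181 mice, beside 23.5% of all genes, and 0 in GFP mice, beside 9.52%. The median log2 change was -0.0337 in miR-181 mice and 0.0119 in GFP mice. The smallest p in that list in miR-181 mice belonged to the import channel gene Tomm40 (0.876-fold), the mitophagy receptor gene Fundc1 (0.885-fold) and Usp15 (0.834-fold), for a deubiquitinase that opposes mitophagy. Of 19 other tested genes linked to Parkinson disease, 1 rose in miR-181 mice, Rab32, while Mapt (0.896-fold) and Vps13c (0.833-fold) did not pass. For the difference between the sets, 0 genes were called in each of the 8 lists, with 3 to 6 per list at an unadjusted p under 0.05 except 2 in the retromer list.

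The calls in these lists rested on few libraries. Of the genes called in miR-181 mice in these lists, none stayed called when any 1 of the 3 uninjected libraries, or injected mouse 3, was left out, with adjusted p up to 0.182. With the mouse as a block, Snx5, Sh3gl2, Rab32, Spag9 and Psmb1 did not pass (adjusted p = 0.0566, 0.0524, 0.0534, 0.0632 and 0.0885 in that order, limma). With no filter on low values, every called gene of the lists but Ctsd and Sod2 lost its call in miR-181 mice, and with no intensity trend every one but Ctsd, Grn and Hmox1 did. Median centring ended the calls of Snx5 and Prdx6, and a pseudocount of 1 that of Psmb1. Over these settings the adjusted p of the lost calls ran up to 0.11, and Ctsd was lost under none of them in either set. In GFP mice Ctsd passed in all 9 fits without 1 library and Grn in 3 of 9, and Grn was lost with no filter and with no intensity trend (adjusted p up to 0.0593, limma).

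**Figure D4:**
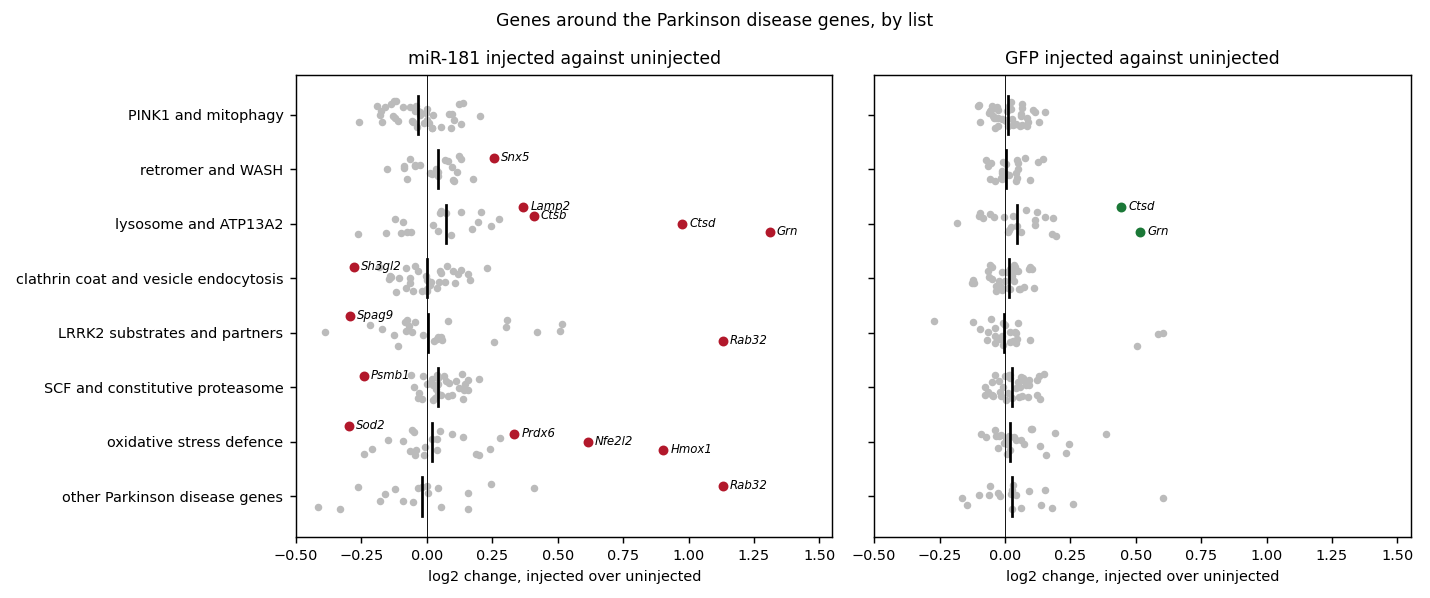
Log2 change of every tested gene in the 8 pathway lists (grey, not called; coloured and named, called at an adjusted p under 0.05), with the median of each list as a black bar, in miR-181 mice and in GFP mice. The largest rises are Grn, Rab32, Ctsd and Hmox1 in miR-181 mice, and Ctsd and Grn are the called genes in GFP mice.

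Of the 4 pathway genes that fell in miR-181 mice, 3 held seed matches in the longest 3′ UTR, which are shown because these are the called decreases nearest in function to the 8 genes. Spag9, Psmb1 and Sod2 held 2 each and Sh3gl2 held 0; among the genes that rose, Lamp2 and Rab32 held 1 each. One match of each of the 3 genes that fell and held matches is printed on the transcribed strand, with the matching letters in capitals (GRCm38).
Spag9, chr11:94123292-94123321, plus strand: ttatcacgatttgtcTGAATGTcccaagag
Psmb1, chr17:15476171-15476200, minus strand: cttcaaaaatatgcaGAATGTAgagcacgt
Sod2, chr17:13015899-13015928, plus strand: caacagtgtgctgtaTGAATGTgttcaaga
A match is a description of the sequence, and 24.84% of tested genes held 1 or more. A longer 3′ UTR has more room for a match. These ran to 3248 bases in Spag9, 1281 in Psmb1, 4963 in Sod2 and 2385 in Sh3gl2, against a median of 1364 over the tested genes. The share with a match among all called decreases is not given, and action of miR-181 on these genes was not tested. In GFP mice the same 3 genes were at 0.974-fold (Spag9), 1-fold (Psmb1) and 0.951-fold (Sod2), and the difference between the sets was not called for any of them (adjusted p = 0.143, 0.185 and 0.132 in that order, limma).

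Markers of the tissue were present in every group. Th and Slc6a3, the tyrosine hydroxylase and dopamine transporter genes that define dopamine neurons, averaged 254 ± 89.1 and 301 ± 134 in miR-181 injected sides, against 304 ± 60.8 and 380.1 ± 92.5 in uninjected sides (SD, n = 3 each), and did not pass (adjusted p = 0.55 and 0.527, limma). In GFP mice they averaged 525 ± 57.3 and 549 ± 53.0 in injected sides (SD, n = 4), against 468 ± 102 and 521 ± 99.0 in uninjected sides (SD, n = 5). In miR-181 mouse 2, Slc6a3 was 173 on the injected side and 433 on the uninjected side. Without that mouse the log2 change of Slc6a3 was 0.055. Of 18 dopamine neuron markers, 17 had a negative log2 change in miR-181 mice (median -0.269) and 18 a positive one in GFP mice (median 0.138). For the difference 18 were negative (median -0.414), and 0 passed in any comparison. The medians over all genes were 0.00353, 0.00456 and 0.00027 in that order. The share of all genes with each sign is not given, so nothing is read from counts of markers by direction. In miR-181 mice 1 to 3 the 18 dopamine neuron markers summed to 2370, 1331 and 1820 in injected sides, against 2318, 2324 and 1776 in uninjected sides. Only mouse 2 thus had a lower sum on its injected side. The 15 pan-neuronal markers summed to 5684 to 6476 in miR-181 injected sides and 6692 to 6981 in uninjected sides, and 14 of the 15 had a negative log2 change, with 0 passing and a median of -0.136. In GFP mice the same sums were 6450 to 6697 in injected and 6476 to 6823 in uninjected sides. Among the other marker lists, 1 of 9 astrocyte markers rose in miR-181 mice and 0 in GFP mice, where 4.39% and 1.34% of all genes rose. No oligodendrocyte, precursor, endothelial, serotonin neuron or pituitary marker passed in either set, and no neutrophil marker reached the filter. Few were tested in some lists: 1 of 4 serotonin neuron markers in GFP mice and 2 of 6 pituitary markers in miR-181 mice. The 4 serotonin neuron markers summed to 52.15 to 101.8 in uninjected sides of miR-181 mice and 5.303 to 8.441 in those of GFP mice. The uninjected tissue of the 2 sets was thus not alike in these markers, and the reason was not tested. The part of neuronal RNA in the values of the 8 genes was not tested.

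Across all 15 libraries, after the mean of each table was taken off, each gene was set beside 13779 others, and the closest by Pearson r are given as a description over libraries that share sides, mice and library sets. Vps35 was closest to Rab10 (r = 0.952), then to Rictor and Abce1 (0.913 each). Dnajc6 was closest to Cnksr2 (0.938), Camk2b (0.896) and Ppp3ca (0.891). Fbxo7 was closest to Xrcc1 (0.923), Pink1 to Enpp6 (0.902), Park7 to Apbb1 (0.891), Atp13a2 to Nrxn2 (0.89) and Synj1 to Rtl9 (0.85). Lrrk2, the lowest of the 8, had the weakest closest match, Rai1 (0.847). Each r was picked as among the highest of 13779, and the r that unrelated genes would reach was not tested.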

How the data were processed

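PolyA-selected RNA was sequenced with strand kept as 75-base pairs (miR-181 libraries) or 50-base pairs (GFP libraries), per the labels' protocols. The authors quantified GRCm38 transcripts with kallisto 0.43.1 and sleuth 0.30.0, per the submitters' processing notes. The deposited signal was taken to be TPM scaled by a library-wise size factor, because the values sum to 985020 to 1004323 in miR-181 libraries and 970505 to 1040288 in GFP libraries; the 2 tables were normalized separately. Read depth is unknown, so no counting interval is given. Of 56305 rows, 36660 held values; 395 rows that repeated a symbol and its values were left out. Replicates are sides of different mice, per the labels.

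The 3 comparisons used limma 3.58.1 (R 4.3.3) on log2(value + 0.5) with an intensity trend, genes with a mean of at least 1, and Benjamini-Hochberg adjustment over all genes; fold changes are on that scale, which understates the change of low genes. The difference between sets was fitted on the differences within 3 miR-181 and 4 GFP mice; mouse 5, with 1 side, is not in it. The code was tested on simulated data. Both sides of a mouse share its number in the labels, so numbers pair the libraries; the deviations of same-numbered sides correlated at 0.14 to 0.257 in miR-181 mice and 0.0177 to 0.192 in GFP mice. The main fit has no block, and the block is an alternative. Other alternatives were pseudocounts of 0.1 and 1, no filter, a mean of at least 5, quantile normalization, median centring, no trend, any 3′ UTR, and leaving out each library or mouse.

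The members and the pathway and marker lists were chosen with earlier results of these data known, so a list count is not independent support. Beyond the 8 genes, names came from the 3 smallest p per list and comparison, of which some are described, from Th, Slc6a3, Aif1 and Gfap, and from the 3 genes closest to each member by correlation, of which the first is given for each and the rest for 2; Prdx6 was named as a call after its values were seen. The 3′ UTRs came from GENCODE M21 and microRNAs from RefSeq.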

Additional observations from a re-analysis of the deposited data

Results flagged for a closer look

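In 52 groups of 4 or 5 GFP values, taken from the genes whose GFP values are reported, 3 held a sample far from the others by Dixon's test; chance flags about 1 in 20 groups. The log2 change of Fbxo7 was 0.207 in GFP mouse 2, against -0.0351 to -0.00144 in the other 3 mice. The log2 change of Synj1 was 0.0829 in the same mouse, against -0.0607 to -0.0476 in the others. The level of Dnajc6 was 122 in the uninjected side of GFP mouse 1, the library with pituitary hormone transcripts, against 143 to 149 in the other 4 uninjected sides.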

How the results depend on the processing

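Of 416 alternative fits of the 8 genes, 401 kept the direction and the side of the threshold, 14 changed direction and 1 passed. That was Dnajc6 in miR-181 mice without injected mouse 1, where 1924 of 15436 genes were called, and the cause was not tested. Of the 8 genes, 0 to 1 were called in miR-181 mice when 1 library or mouse was left out, and 0 in every other alternative and comparison. The number with a seed match was 1 of 8 also with any annotated 3′ UTR.

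Over all genes, miR-181 mice had 315 calls with no filter on low values and 449 without an intensity trend, against 908. GFP mice had 136 calls with a mean of at least 5, against 206. The difference had 1 call with no filter, 1 with quantile normalization and 3 without a trend, against 5. With the mouse as a replicate block, which pairs the sides, GFP mice had 124 calls and the log2 change of Psmb1 in GFP mice was -0.0045; the block changed no call of the 8 genes. When 1 library or mouse was left out, calls ran from 1 to 1924 in miR-181 mice, 64 to 255 in GFP mice and 1 to 323 for the difference.

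Median centring gave -0.0044 for Vps35 in miR-181 mice, -0.013 for Psmb1 in GFP mice and -0.033 for Synj1 in the difference, and quantile normalization gave -0.021 for Park7 and -0.019 for Psmb1 in GFP mice. Without 1 library or mouse, the log2 change in miR-181 mice ran from -0.049 to 0.0058 for Pink1, -0.067 to 0.019 for Synj1, -0.55 to 0.027 for Th and -0.73 to 0.055 for Slc6a3. In GFP mice it ran from -0.0087 to 0.053 for Park7, -0.013 to 0.057 for Fbxo7, -0.001 to 0.18 for Slc6a3 and -0.017 to 0.034 for Psmb1. For the difference it ran from -0.31 to 0.094 for Lrrk2 and -0.04 to 0.038 for Synj1. Fits with 1 library or mouse fewer have fewer degrees of freedom, and the depth of the libraries is unknown.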
